A study of Mus musculus with 8 samples.

Results

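The genes described here are 29 mouse genes of DNA double-strand break repair, interstrand crosslink repair, mismatch repair and the replication checkpoint, followed across 8 RNA sequencing libraries of 4T1 cells. They were chosen by name, with earlier results of these data known. All 29 were found by Entrez number among the 24454 genes listed. All 29 also passed the filter on low values that left 11623 genes for testing. 4T1 is a mouse mammary carcinoma cell line that spreads to distant organs when implanted in mice. The study asks how the kinase MEK5 and its substrate ERK5 bear on the epithelial-mesenchymal transition of breast cancer cells. All cells had been infected with a lentivirus carrying a short hairpin RNA in the presence of polybrene and selected with puromycin. The hairpin was a non-targeting one in 3 libraries (shCTRL), was directed against murine MEK5 in 2 libraries (shMEK5, titled shMEK5-2) and against murine ERK5 in 3 libraries (shERK5, titled shERK5-1). With 1 hairpin per target, a change cannot be told apart from an effect of that hairpin on other transcripts. The labels do not say whether a line was a clone or a pool, or whether replicates were separate cultures, so the p-values rest on differences between libraries that may only be technical.

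Cells repair a broken chromosome without loss of sequence by homologous recombination. The MRE11-RAD50-NBN complex and its partners trim the broken ends, BRCA1-BARD1, PALB2 and BRCA2 prepare the exposed strand for pairing with an intact copy, and RAD54 and the BLM complex carry the exchange to its end. The Fanconi anaemia proteins feed crosslinks into the same route, the MutS and MutL proteins correct mispaired bases behind the replication fork, and the kinases ATM and ATR with their effectors CHK2 and CHK1 hold the cell cycle while damage is repaired. Many of these genes are known to be transcribed mainly in S and G2 phase, so their level in a bulk sample follows the share of dividing cells as well as the output of each cell.

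Gene-assigned reads ranged from 41397315 to 53714288 per library, and values are given as CPM, the reads of a gene per 1000000 such reads. The members were counted with between 163 and 17745 reads per library, and none of the 29 had a read profile identical to that of a further gene (0 found). The hairpins lowered their own targets: Map2k5, which encodes MEK5, had a log2 fold change of -1.29 (SE 0.06, limma adjusted p = 1.84e-07) in shMEK5, and Mapk7, which encodes ERK5, one of -1.88 (SE 0.07, adjusted p = 4.56e-08) in shERK5. Mapk7 was also lower in shMEK5, at -0.44 (SE 0.08, adjusted p = 0.000923). All 9 epithelial markers were detected, with a summed level of 1844 to 2029 CPM in shCTRL, 1426 and 1488 in shMEK5 and 1893 to 1933 in shERK5. Of these, 6 were called higher and 2 lower in shERK5, with a median log2 fold change of 0.86, and 4 higher and 2 lower in shMEK5, with a median of 0.10. Of 8 fibroblast markers only Pdgfra exceeded 1 CPM, at 31.4 to 46.3 CPM in shCTRL, 33.6 and 35.5 in shMEK5 and 22.5 to 28.0 in shERK5, whereas Dcn, Lum and Thy1 had 0 reads in all libraries. Of 9 leukocyte markers only Cd68, at 2.90 to 3.09 CPM in shCTRL, 1.84 and 2.10 in shMEK5 and 2.81 to 3.67 in shERK5, passed the filter. It was lower in shMEK5 (-0.43, SE 0.10, adjusted p = 0.00617), while the defining marker Ptprc stayed at or below 0.0936 CPM. None of the 5 endothelial markers passed, with Pecam1 the highest at up to 0.314 CPM. Libraries of 1 group were not equal over the members: shCTRL replicate 1 was the highest of its group for 21 of the 29, and shERK5 replicate 1 was the highest of its group for 14. Results that rest on a single library are given with and without it below.

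In shERK5 most of the 29 genes fell. Against shCTRL, 22 of 29 (75.9%) were lower and 1 was higher at a limma adjusted p under 0.05. The background was 31.3% of all tested genes lower and 32.0% higher. The 29 were chosen with earlier results of these data known, so their distance from that background is described and not tested. The median log2 fold change of the 29 was -0.35, beside 0.00 over all genes tested, and the summed level went from between 1511 and 1712 CPM in shCTRL to between 1202 and 1328 CPM in shERK5. The largest falls were those of Brca2 (-1.11), Rad50 (-0.75), Xrcc3 (-0.70) and Chek2 (-0.67), and the gene that rose was Pms2 (0.21). The CPM values of the 2 groups did not overlap for 21 members that were lower and 1 that was higher; over all tested genes this held for 33.1% and 34.8%. In these bulk samples, fewer cells in the phases that express such genes and less RNA per cell cannot be told apart.

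In shMEK5 the same genes split. Against shCTRL, 6 of 29 (20.7%) were higher and 6 (20.7%) lower, shares near those of all tested genes, 23.1% and 25.6% (48.7% in either direction), and the median was 0.01, beside -0.02 over all genes tested. Rad51ap1, Rad54b, Exo1, Bard1, Chek1 and Msh6 rose, and Brca2, Rad54l, Xrcc2, Xrcc3, Eme1 and Chek2 fell. The 6 falls became 3 without shCTRL replicate 1 and 2 without shMEK5 replicate 2, while the rises numbered between 5 and 8 whichever library was left out. CPM values of shMEK5 and shCTRL did not overlap for 10 members higher in shMEK5 and 10 lower. Over all tested genes this held for 32.2% and 36.5%. Compared directly, shERK5 was lower than shMEK5 for 15 of 29 members (51.7%) and higher for 0, where 17.4% and 22.0% of all tested genes were called (39.4% in either direction). The CPM values of the knockdowns did not overlap for 20 members lower in shERK5 and 1 higher, against 26.9% and 34.1% of all tested genes. For higher members the count was 0 at an unadjusted p under 0.05 as well, and 0 by edgeR and by DESeq2. The 3 comparisons share libraries, so their values below are set side by side and are not independent of each other.

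**Figure D1:**
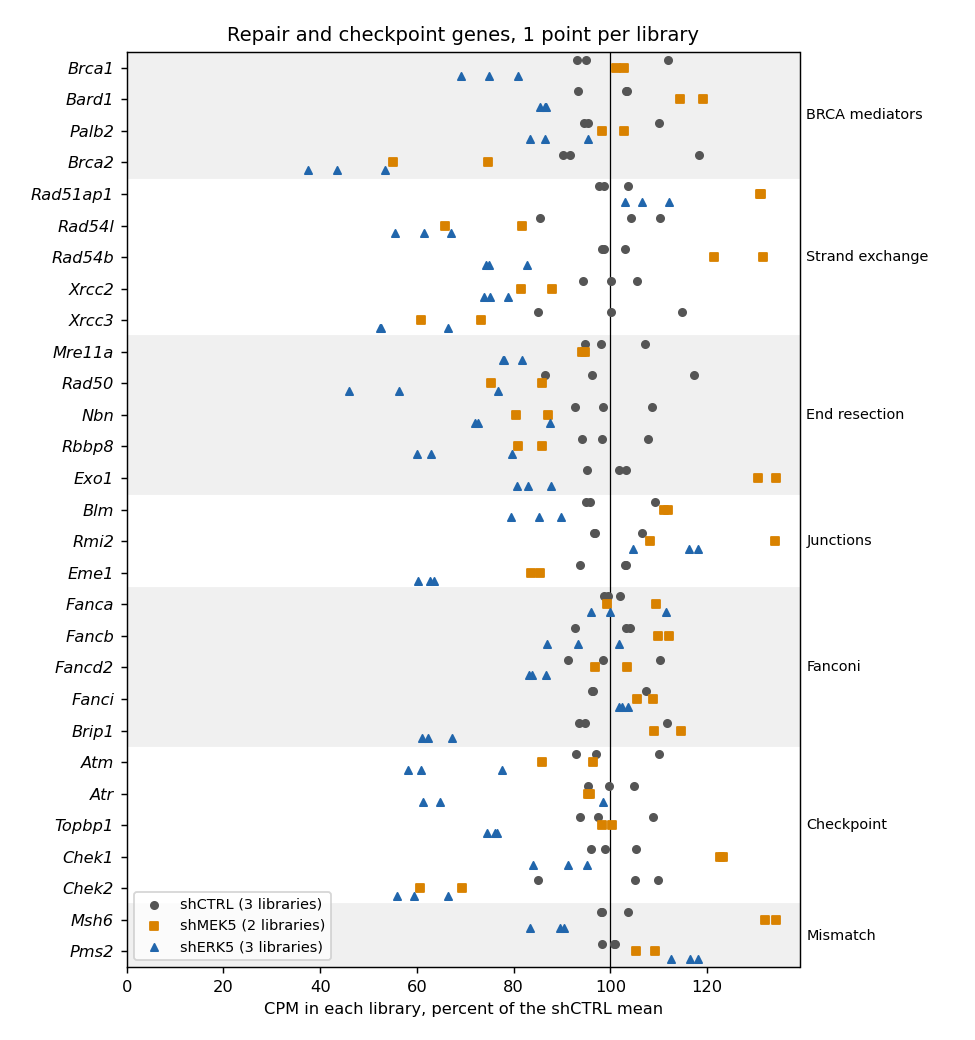
CPM of each of the 29 genes in each of the 8 libraries as a percentage of the shCTRL mean (horizontal axis), with genes in rows grouped by role; circles are shCTRL, squares shMEK5 and triangles shERK5. The triangles lie left of the circles for 21 genes and right of them for Pms2, while the squares lie on both sides.

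**Figure D2:**
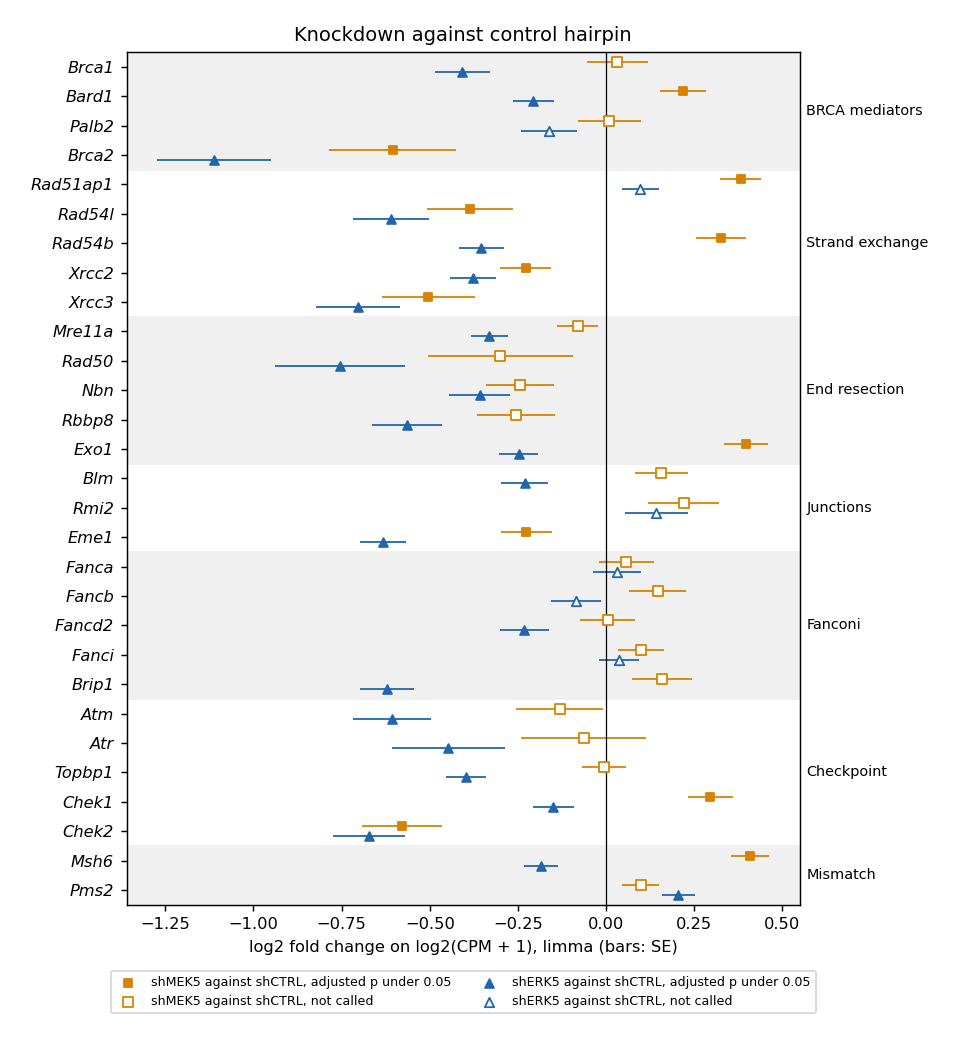
Limma log2 fold change of each gene on the log2(CPM + 1) scale (horizontal axis) in shMEK5 (squares) and shERK5 (triangles) against shCTRL, with SE bars; filled symbols have an adjusted p under 0.05. In shERK5, 22 filled symbols are left of 0 and 1 is right of it; in shMEK5, 6 are on each side.

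Promoter sequence is shown for 3 genes as examples of members called in shMEK5: Msh6, which rose in shMEK5 and fell in shERK5, Rad51ap1, which rose in shMEK5 and was not called in shERK5, and Xrcc3, which fell in both. Members called in shERK5 and not in shMEK5, such as Brip1 and Topbp1, are not among them. These are RefSeq sequences of GRCm38.p6 upstream of the transcription start of the RefSeq promoter table, written 5′ to 3′ on the strand of the gene, with each CCAAT box (CCAAT, or ATTGG on the other strand) in capitals. Msh6 is shown from 250 to 1 bases upstream (chr17:87974800-87975049, plus strand), Rad51ap1 from 250 to 32 (chr6:126939619-126939837, minus strand) and Xrcc3 from 250 to 15 (chr12:111813894-111814129, minus strand).
Msh6: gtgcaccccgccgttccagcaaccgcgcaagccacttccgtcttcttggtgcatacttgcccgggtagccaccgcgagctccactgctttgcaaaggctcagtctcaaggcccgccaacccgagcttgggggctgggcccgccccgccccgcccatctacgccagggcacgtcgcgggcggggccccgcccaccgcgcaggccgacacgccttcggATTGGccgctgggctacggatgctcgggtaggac
Rad51ap1: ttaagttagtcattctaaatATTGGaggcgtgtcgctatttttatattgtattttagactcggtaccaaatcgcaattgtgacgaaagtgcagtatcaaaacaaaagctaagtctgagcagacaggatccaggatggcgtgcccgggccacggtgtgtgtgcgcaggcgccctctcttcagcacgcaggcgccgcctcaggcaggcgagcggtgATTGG
Xrcc3: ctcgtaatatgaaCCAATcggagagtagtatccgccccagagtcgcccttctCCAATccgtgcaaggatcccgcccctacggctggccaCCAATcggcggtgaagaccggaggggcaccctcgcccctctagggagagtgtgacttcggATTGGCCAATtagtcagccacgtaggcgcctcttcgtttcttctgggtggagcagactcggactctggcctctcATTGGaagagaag

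Of the 29 members, 21 had a RefSeq promoter entry that was used. Chromosome 18, which holds Rbbp8, was left out for the members. That exclusion was not applied to the gene promoters they are compared with. The start in the RefSeq promoter table is not always the outermost one. For 16 of the 21 the window of 250 bases reaches into the span of the gene itself. Within 250 bases upstream, 13 of the 21 (61.9%) held a CCAAT box on either strand, compared with 34.5% of 27025 gene promoters of the same length. In 11 of these 13 at least 1 box lay wholly before the gene span. The genes printed above all held a box. The windows of Bard1, Brca2, Chek1 and Eme1, also called in shMEK5, held none. Msh6 had 1 box, starting 34 bases upstream, Rad51ap1 had 2, the nearer of which runs 3 bases into the gene span, and Xrcc3 had 6, the pair at 101 and 96 bases upstream lying back to back. The E2F words TTTCCCGC, TTTGGCGC, TTTCGCGC and TTTGCCGC, searched on both strands, occurred in 4 of the 21 (19.0%), namely Bard1, Brca2, Chek2 and Topbp1, and in 1.91% of all promoters. Only in Bard1 did the word lie before the gene span, and in the other 3 it lay inside the gene. The cell cycle homology region TTTGAA was found in 1 of the 21 (4.76%), Bard1, and in 16.3% of all promoters. In these promoters no match of one kind overlapped a match of another, and a match describes letters, not binding.

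In shERK5, where 31.3% of all tested genes were lower, the BRCA mediators fell in 3 of 4 cases. Brca2 (Entrez 12190; chromosome 5, 150522297 to 150570147, GRCm38), a mediator that acts at the resected end, stood at 39.5, 30.6 and 30.1 CPM in the shCTRL libraries, at 25.0 and 18.4 CPM in shMEK5 and at 17.9, 14.5 and 12.5 CPM in shERK5. No value of one group overlapped another, and the shERK5 mean was 44.8% of that in shCTRL. The log2 fold change was -1.11 (SE 0.16, adjusted p = 0.000435) in shERK5 and -0.60 (SE 0.18, adjusted p = 0.0236) in shMEK5. The shMEK5 call was lost without shCTRL replicate 1 (-0.48 at adjusted p = 0.0654) and without shMEK5 replicate 2 (-0.40 at adjusted p = 0.183). Between the knockdowns the difference of -0.51 (SE 0.18, adjusted p = 0.0552) was not called. It was called without shCTRL replicate 1 (adjusted p = 0.0429), shMEK5 replicate 2 (-0.72 at adjusted p = 0.0381) or shERK5 replicate 1 (-0.63 at adjusted p = 0.0158), and by DESeq2 (-0.56 at adjusted p = 0.00561).

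Brca1, the E3 ubiquitin ligase that starts this step, went from 70.0 to 84.1 CPM in shCTRL to 51.9 to 60.8 CPM in shERK5 (log2 fold change -0.41, SE 0.08, adjusted p = 0.00103). The shMEK5 libraries, at 75.9 and 77.2 CPM, lay within the control range (0.03, SE 0.09, adjusted p = 0.78). Bard1 forms the active ligase with Brca1. In shMEK5 it rose to 36.2 and 37.8 CPM from 29.5 to 32.8 CPM in shCTRL (0.22, SE 0.06, adjusted p = 0.0166). In shERK5 it fell to between 27.03 and 27.5 CPM (-0.21, SE 0.06, adjusted p = 0.00925). Its rise was lost without shCTRL replicate 2 (0.17 at adjusted p = 0.0537) and without shMEK5 replicate 1 (0.19 at adjusted p = 0.111). Palb2, the bridge between BRCA1 and BRCA2, was called in neither knockdown, at 10.8 to 12.6 CPM in shCTRL, 11.2 and 11.7 in shMEK5 and 9.51 to 10.9 in shERK5.

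Among the 5 genes whose products work in strand pairing and exchange, all 5 were called in shMEK5, 2 higher and 3 lower. Of all tested genes, 48.7% were called there in either direction. In shERK5 4 of the 5 were lower, beside 31.3% of all tested genes. Xrcc3 (Entrez 74335; chromosome 12, 111803192 to 111813893), a recombination factor first found through X-ray sensitive cells, stood at 10.4, 7.72 and 9.09 CPM in shCTRL, 6.64 and 5.53 CPM in shMEK5 and 4.75, 4.77 and 6.03 CPM in shERK5. Both knockdowns lay below every control library and overlapped each other. The log2 fold changes were -0.50 (SE 0.13, adjusted p = 0.0101) in shMEK5 and -0.70 (SE 0.12, adjusted p = 0.000481) in shERK5; without shMEK5 replicate 2 the former was not called (-0.39 at adjusted p = 0.0983). Xrcc2, another factor of this kind, was at 21.4 to 23.9 CPM in shCTRL, 18.5 and 19.9 in shMEK5 and 16.7 to 17.9 in shERK5. Its changes were -0.23 (SE 0.07, adjusted p = 0.0234) and -0.38 (SE 0.06, adjusted p = 0.000509), the first lost without shCTRL replicate 2 (-0.19 at adjusted p = 0.0765) or shMEK5 replicate 2 (-0.18 at adjusted p = 0.172).

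The RAD54 motor proteins, which drive strand exchange, are encoded by a pair of paralogues that parted in shMEK5. Rad54b (Entrez 623474; chromosome 4, 11558920 to 11615808) was at 23.9, 22.8 and 22.8 CPM in shCTRL, rose to 30.5 and 28.1 CPM in shMEK5 and fell to 19.2, 17.4 and 17.2 CPM in shERK5. The groups did not overlap in any pair: the log2 fold change was 0.33 (SE 0.07, adjusted p = 0.00365) in shMEK5, -0.35 (SE 0.06, adjusted p = 0.000709) in shERK5 and -0.68 (SE 0.07, adjusted p = 4.84e-05) between them. Rad54l (Entrez 19366; chromosome 4, 116094261 to 116123700) was at 9.40, 8.89 and 7.29 CPM in shCTRL, 5.60 and 6.96 CPM in shMEK5 and 5.23, 4.73 and 5.71 CPM in shERK5. Here both knockdowns were lower, by -0.39 (SE 0.12, adjusted p = 0.0231) and -0.61 (SE 0.11, adjusted p = 0.000682). The shMEK5 call for Rad54l was lost without shCTRL replicate 1 (-0.32 at adjusted p = 0.0686), shCTRL replicate 2 (-0.36 at adjusted p = 0.0665) or shMEK5 replicate 1 (-0.25 at adjusted p = 0.2). Rad51ap1, which promotes strand pairing, rose to 50.4 and 50.5 CPM in shMEK5 from 37.6 to 39.9 CPM in shCTRL (0.38, SE 0.06, adjusted p = 0.000396). In shERK5 it was at 39.6 to 43.2 CPM, overlapping the control (0.10, SE 0.05, adjusted p = 0.124), and lower than in shMEK5 (-0.29, SE 0.06, adjusted p = 0.00301).

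All 5 end resection genes fell in shERK5, beside 31.3% of all tested genes. Rad50 (Entrez 19360; chromosome 11, 53649519 to 53707319), the coiled-coil ATPase that tethers the ends, was at 102, 75.4 and 83.9 CPM in shCTRL, 74.9 and 65.6 CPM in shMEK5 and 67.0, 49.0 and 40.1 CPM in shERK5. The spread within groups was wide, with the highest shERK5 library 1.67 times the lowest. The fall in shERK5 was -0.75 (SE 0.18, adjusted p = 0.00777) on the log2 scale, and the value in shMEK5, -0.30 (SE 0.21, adjusted p = 0.262), was not called. Rbbp8 (Entrez 225182; chromosome 18, 11633276 to 11743207), which encodes CtIP, the starter of resection, was at 71.5, 62.4 and 65.1 CPM in shCTRL, 57.0 and 53.7 CPM in shMEK5 and 52.8, 39.9 and 41.7 CPM in shERK5. The shERK5 libraries lay below all others, at -0.56 (SE 0.10, adjusted p = 0.000869). In shMEK5 its -0.26 (SE 0.11, adjusted p = 0.0829) was not called with all libraries but was without shERK5 replicate 1 (adjusted p = 0.00811) and in a fit of only the 2 groups compared (adjusted p = 0.0109).

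Mre11a, the nuclease of the complex, fell in shERK5 to between 112 and 117 CPM from between 136 and 154 CPM in shCTRL (-0.33, SE 0.05, adjusted p = 0.000316). Nbn, its adaptor to ATM, fell to between 19.7 and 23.9 CPM from between 25.4 and 29.7 (-0.36, SE 0.09, adjusted p = 0.00429). In shMEK5 Mre11a had -0.08 (adjusted p = 0.28) and Nbn -0.24 (adjusted p = 0.0584). The latter was called without shCTRL replicate 2 (-0.29 at adjusted p = 0.047), without shERK5 replicate 1 (adjusted p = 0.0218) and in a fit of only the 2 groups compared (adjusted p = 0.0292). For Mre11a, Nbn, Rad50 and Rbbp8 both shMEK5 libraries lay below every shCTRL library, as for 36.5% of all tested genes. Exo1 (Entrez 26909; chromosome 1, 175880768 to 175911396), the exonuclease of long-range resection and of mismatch repair, moved otherwise in shMEK5. It stood at 37.2, 34.3 and 36.6 CPM in shCTRL, 47.0 and 48.4 CPM in shMEK5 and 29.1, 29.9 and 31.6 CPM in shERK5. The 3 groups were apart, with log2 fold changes of 0.40 (SE 0.06, adjusted p = 0.000493) in shMEK5, -0.25 (SE 0.06, adjusted p = 0.00287) in shERK5 and -0.64 (SE 0.06, adjusted p = 2.95e-05) between them.

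Of the 3 genes that resolve or dissolve the joined molecules, 2 fell in shERK5, beside 31.3% of all tested genes. Eme1 (Entrez 268465; chromosome 11, 94644972 to 94653836), partner of the MUS81 nuclease, was at 16.1, 16.1 and 14.7 CPM in shCTRL, 13.0 and 13.3 CPM in shMEK5 and 9.42, 9.92 and 9.78 CPM in shERK5. The groups did not overlap, and the shERK5 mean was 62.2% of the control (-0.63, SE 0.06, adjusted p = 1.58e-05). In shMEK5 it fell by less (-0.23, SE 0.07, adjusted p = 0.0247). That call did not hold without shCTRL replicate 1 (-0.21 at adjusted p = 0.0601) or 2 (-0.20 at adjusted p = 0.0723) and without shMEK5 replicate 1 (-0.21 at adjusted p = 0.117) or 2 (-0.24 at adjusted p = 0.0838). Mus81 itself, from the list of other recombination genes, went the other way, with 0.32 (SE 0.07, adjusted p = 0.00356) in shMEK5 and 0.56 (SE 0.06, adjusted p = 3.22e-05) in shERK5. Blm, the helicase mutated in Bloom syndrome, fell in shERK5 to between 33.3 and 37.6 CPM from between 39.8 and 45.7 (-0.23, SE 0.07, adjusted p = 0.0117). This call was lost without shERK5 replicate 3 (-0.19 at adjusted p = 0.0552). In shMEK5 Blm was at 46.5 and 46.9 CPM (0.16 at adjusted p = 0.109) and was called without shCTRL replicate 1 (0.22 at adjusted p = 0.0256). Rmi2, a small subunit of the BLM complex, was low, between 3.81 and 5.29 CPM over all libraries, and was called in neither knockdown; without shMEK5 replicate 2 it was called higher in shMEK5 (0.35 at adjusted p = 0.0422).

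Of the 5 Fanconi anaemia genes, 2 (40.0%) fell in shERK5, near the 31.3% of all tested genes. By limma 0 were called in shMEK5, where 48.7% of all tested genes were called in either direction. In shMEK5 the count was also 0 at an unadjusted p under 0.05, and 0 by edgeR and by DESeq2. Brip1 (Entrez 237911; chromosome 11, 86058136 to 86201215), the FANCJ helicase that binds BRCA1, was at 29.2, 24.8 and 24.4 CPM in shCTRL, 29.9 and 28.5 CPM in shMEK5 and 17.6, 16.3 and 15.9 CPM in shERK5. The shERK5 libraries lay below all others, at 63.5% of the control mean (-0.62, SE 0.08, adjusted p = 5.5e-05) and -0.78 (SE 0.09, adjusted p = 6.48e-05) against shMEK5. In shMEK5 its 0.16 (adjusted p = 0.149) was called only without shCTRL replicate 1 (0.24 at adjusted p = 0.0252).

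Fancd2 and Fanci encode the paired proteins that are ubiquitinated together at a crosslink. Fancd2 fell in shERK5 to between 31.6 and 32.9 CPM from between 34.6 and 41.8 (-0.23, SE 0.07, adjusted p = 0.0137). Fanci, at 29.1 to 32.5 CPM in shCTRL and 30.8 to 31.3 in shERK5, was not called (0.04, SE 0.06, adjusted p = 0.592). Fanca and Fancb, subunits of the ligase complex that marks them, had values of 0.03 (adjusted p = 0.712) and -0.09 (adjusted p = 0.312) in shERK5, with Fanca between 19.6 and 22.8 CPM and Fancb between 22.8 and 29.5 CPM over all 8 libraries. Between the knockdowns, Fancd2 (-0.24 at adjusted p = 0.0332) and Fancb (-0.23 at adjusted p = 0.0401) were lower in shERK5. Both calls were lost without shMEK5 replicate 1 (-0.28 at adjusted p = 0.069 and -0.22 at adjusted p = 0.172), shMEK5 replicate 2 (-0.19 at adjusted p = 0.188 and -0.25 at adjusted p = 0.112), shERK5 replicate 2 (-0.23 at adjusted p = 0.0678 and -0.18 at adjusted p = 0.119) or shERK5 replicate 3 (-0.23 at adjusted p = 0.0887 and -0.23 at adjusted p = 0.0934), and that of Fancb also without shCTRL replicate 3 (adjusted p = 0.0527). Without the filter on low values both were lost as well (adjusted p = 0.059 for Fancd2 and 0.0656 for Fancb), and Fancb was lost in a fit of only the 2 groups compared (adjusted p = 0.0506).

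All 5 checkpoint genes were called lower in shERK5, to different extents, beside 31.3% of all tested genes. Atm (Entrez 11920; chromosome 9, 53437122 to 53536828), the kinase that answers double-strand breaks, was at 81.2, 68.6 and 71.5 CPM in shCTRL, 71.1 and 63.3 CPM in shMEK5 and 57.3, 44.8 and 43.0 CPM in shERK5. The shERK5 libraries lay below all others, at 65.5% of the control mean (-0.61, SE 0.11, adjusted p = 0.00123), and the shMEK5 libraries overlapped the control (-0.13, SE 0.12, adjusted p = 0.407). The difference between the knockdowns, -0.48 (SE 0.12, adjusted p = 0.0142), was lost without shMEK5 replicate 1 (-0.39 at adjusted p = 0.12). Chek2 (Entrez 50883; chromosome 5, 110839800 to 110874140), the effector kinase below ATM, was at 20.9, 20.0 and 16.2 CPM in shCTRL, 13.2 and 11.5 CPM in shMEK5 and 11.3, 12.6 and 10.6 CPM in shERK5. Both knockdowns were lower than every control library, by -0.58 (SE 0.11, adjusted p = 0.00197) and -0.67 (SE 0.10, adjusted p = 0.000234), and no alternative or left-out library changed these 2 calls. They overlapped each other, with a difference of -0.09 (SE 0.11, adjusted p = 0.552).

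On the ATR side, Atr, the kinase that answers stalled forks, was uneven in shERK5, at 159, 104 and 98.8 CPM against 154 to 169 CPM in shCTRL and 154 CPM in both shMEK5 libraries. Replicate 1 lay in the control range and the other shERK5 libraries well below it. Without replicate 1 the log2 fold change against shCTRL was -0.66 and was called. The call in shERK5 (-0.45, SE 0.16, adjusted p = 0.0389) did not hold by edgeR (-0.42 at adjusted p = 0.0611), by DESeq2 (-0.42 at adjusted p = 0.0749), or in a fit of only the 2 groups compared (adjusted p = 0.0627). Nor did it hold without shCTRL replicate 1 (-0.41 at adjusted p = 0.12) or 3 (-0.45 at adjusted p = 0.0751), shMEK5 replicate 1 (adjusted p = 0.0618) or 2 (adjusted p = 0.0608), or shERK5 replicate 2 (-0.36 at adjusted p = 0.134) or 3 (-0.32 at adjusted p = 0.105). Rad50, Rbbp8 and Atm were also highest in shERK5 replicate 1 among the shERK5 libraries. Without it, the difference between the knockdowns was called for Atr (-0.60 at adjusted p = 2.96e-05), Rad50 (-0.65 at adjusted p = 0.0108) and Rbbp8 (-0.43 at adjusted p = 0.00087). In the main limma fit with all libraries these differences were not called (adjusted p = 0.127, 0.119 and 0.0517). By DESeq2 with all libraries, that of Rbbp8 was called (-0.33 at adjusted p = 0.0233).

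Topbp1, the scaffold that switches ATR on, fell evenly in shERK5 to between 233 and 240 CPM from between 293 and 341 CPM in shCTRL (-0.40, SE 0.06, adjusted p = 0.000139). In shMEK5 it was at 308 and 314 CPM (-0.01, SE 0.06, adjusted p = 0.941). Per kilobase of exon it was also the most abundant member, at 59.9 CPM per kilobase in shCTRL, followed by Mre11a at 24.9 and Msh6 at 21.6, while Rmi2 was the least abundant at 1.05. Chek1, the effector kinase below ATR, rose in shMEK5 to 91.5 and 91.8 CPM from between 71.5 and 78.5 CPM (0.30, SE 0.06, adjusted p = 0.0034). In shERK5 it was at 62.6 to 70.9 CPM (-0.15, SE 0.06, adjusted p = 0.041). That call was lost without shCTRL replicate 1 (-0.11 at adjusted p = 0.129) or 3 (-0.16 at adjusted p = 0.0742), shMEK5 replicate 1 or 2 (adjusted p = 0.056 for either), shERK5 replicate 2 (-0.10 at adjusted p = 0.162) or 3 (-0.16 at adjusted p = 0.0753). It was also lost without the filter on low values (adjusted p = 0.065) and in a fit of only the 2 groups compared (adjusted p = 0.0565). The effector kinases thus differed in shMEK5, where Chek1 was at 123% and Chek2 at 65.0% of the control mean.

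The mismatch repair genes moved apart. Msh6 (Entrez 17688; chromosome 17, 87975050 to 87990892), a MutS protein that recognises single mispairs, was at 95.0, 90.0 and 90.0 CPM in shCTRL, 123 and 121 CPM in shMEK5 and 76.5, 82.2 and 82.9 CPM in shERK5. The 3 groups were apart, with log2 fold changes of 0.41 (SE 0.05, adjusted p = 0.000167) in shMEK5, -0.19 (SE 0.05, adjusted p = 0.00669) in shERK5 and -0.59 (SE 0.05, adjusted p = 2.07e-05) between them. Pms2, a subunit of the nicking enzyme MutL alpha, was the member that rose in shERK5, to between 47.9 and 50.3 CPM from between 41.9 and 43.0 CPM (0.21, SE 0.05, adjusted p = 0.00318). In shMEK5, at 44.8 and 46.5 CPM, it was not called (0.10, SE 0.05, adjusted p = 0.146). Pms2 has related pseudogene copies in mammals, and how the authors assigned reads that match several copies is unknown here.

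**Figure D3:**
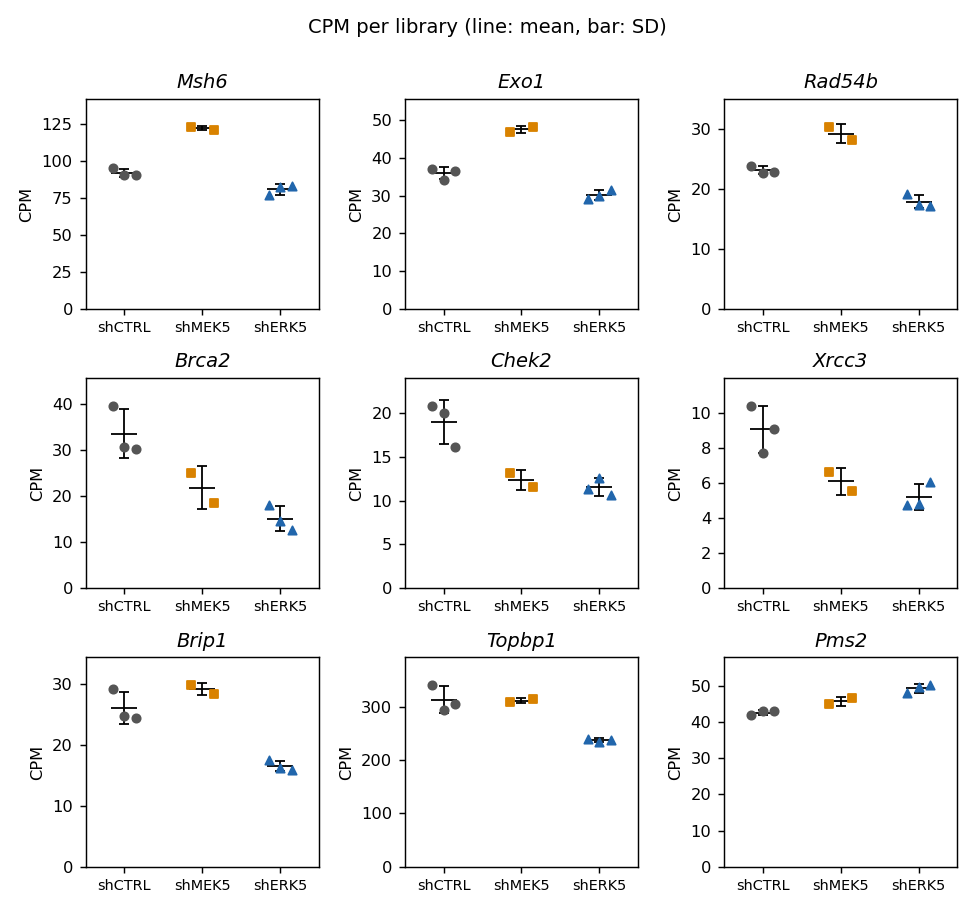
CPM (vertical axis, from 0) of 9 genes in each library by group, with the mean as a line and the SD as a bar (n = 3 shCTRL, 2 shMEK5, 3 shERK5). Msh6, Exo1 and Rad54b are above the control in shMEK5 and below it in shERK5, Brca2, Chek2 and Xrcc3 are below it in both, Brip1 and Topbp1 are below it in shERK5, and Pms2 is above it in shERK5.

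Other genes of the same pathways, not among the 29, moved in both directions in shERK5. Of all tested genes, 31.3% were lower and 32.0% higher there. Of 25 other recombination genes, 8 (32.0%) were lower and 5 (20.0%) higher, the 5 becoming 3 without shERK5 replicate 2 or 3. Their median was 0.00. They included Zswim7, a partner of SWSAP1, at 0.92 (SE 0.07, adjusted p = 3.39e-06), Mus81, and Sfr1, an accessory factor of strand exchange, at -0.54 (SE 0.07, adjusted p = 0.000105), while the structure-specific nuclease scaffold Slx4 was at -0.51 (SE 0.08, adjusted p = 0.00023). Of 14 other Fanconi genes, 9 (64.3%) were lower and 1 (7.14%) higher (2 without shCTRL replicate 2), with a median of -0.29. Usp1, which removes ubiquitin from FANCD2, fell from 176 ± 8.77 to 81.9 ± 6.15 CPM (SD, n = 3 each; -1.10, SE 0.06, adjusted p = 2.63e-07), and its activating partner Wdr48 fell by less (-0.35, SE 0.04, adjusted p = 6.32e-05). Rfwd3, a ligase acting on RPA, was at -0.36 (SE 0.04, adjusted p = 5.38e-05), and Faap24 was the one that rose with all libraries (0.32, SE 0.06, adjusted p = 0.00118).

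Of 5 other mismatch repair genes 4 (80.0%) were lower in shERK5, beside 31.3% of all tested genes. The 4 included Msh3 (-0.43, SE 0.07, limma adjusted p = 0.0003), Pms1 (-0.35, SE 0.08, adjusted p = 0.0033) and Mlh3 (-0.30, SE 0.09, adjusted p = 0.0114). Among 18 other checkpoint genes 7 (38.9%) were lower and 4 (22.2%) higher, beside 31.3% and 32.0% of all tested genes. The 7 became 4 without shCTRL replicate 1 or 2 or shERK5 replicate 1, and 3 without shCTRL replicate 3. Rad9a, of the clamp that recruits TOPBP1, rose from 94.0 ± 8.02 to 171 ± 13.3 CPM (SD, n = 3 each; 0.86, SE 0.08, adjusted p = 6.11e-06), and Atrip, the obligate partner of ATR, by 0.41 (SE 0.06, adjusted p = 0.000253). Cdc25a, the phosphatase that CHK1 restrains, rose by 0.39 (SE 0.05, adjusted p = 5.74e-05) and Trp53bp1, which limits resection, was at -0.44 (SE 0.04, adjusted p = 1.26e-05). In shMEK5, 23.1% of all tested genes were higher and 25.6% lower. There the list counts were 5 higher and 6 lower of 25 for recombination and 1 and 6 of 14 for Fanconi. They were 0 and 2 of 5 for mismatch repair and 8 and 2 of 18 for the checkpoint. Without shMEK5 replicate 2 they were 2 and 3 for recombination, and the lower genes numbered 3 for Fanconi, 1 for mismatch repair and 1 for the checkpoint. The last was also 1 without shMEK5 replicate 1.

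Genes of cell division moved in the same libraries. Of 32 G2/M genes, all 32 were lower in shERK5, with a median log2 fold change of -0.82, and their summed level was 5135 to 5933 CPM in shCTRL, 4765 and 4893 in shMEK5 and 2896 to 3262 in shERK5. Nusap1, a spindle protein, was at -2.41 (SE 0.08, adjusted p = 3.83e-08), the spindle assembly factor Tpx2 at -1.16 (SE 0.05, adjusted p = 1.48e-07) and the mitotic cyclins Ccnb1 and Ccnb2 at -0.86 (SE 0.05, adjusted p = 5.57e-07) and -0.97 (SE 0.06, adjusted p = 6.28e-07). Of 36 S phase genes, 20 (55.6%) were lower and 7 (19.4%) higher in shERK5 (median -0.20), beside 31.3% and 32.0% of all tested genes. In shMEK5, 15 (41.7%) were higher and 7 (19.4%) lower (median 0.11), beside 23.1% and 25.6% of all tested genes. The 7 higher in shERK5 became 4 without shERK5 replicate 3, and in shMEK5 the 15 became 9 without replicate 2 and the 7 became 3 without replicate 1. Their summed level was 3167 to 3440 CPM in shCTRL, 3649 and 3752 in shMEK5 and 2824 to 3007 in shERK5. Chaf1b, a histone chaperone subunit, was at -1.11 (SE 0.07, adjusted p = 4.3e-07) in shERK5 and the helicase subunit Mcm7 at -0.91 (SE 0.06, adjusted p = 5.26e-07), with Gins4 at -0.80 and the replicative ligase Lig1 at -0.55. In shMEK5, 10 (31.2%) of the 32 G2/M genes were lower and 2 (6.25%) higher, beside 25.6% and 23.1% of all tested genes. The 10 became 5 without shCTRL replicate 1, 4 without shMEK5 replicate 1, 6 without shMEK5 replicate 2 and 6 without the filter on low values, and the 2 became 1 without shCTRL replicate 2 or either shMEK5 library. The part that a different share of cells in S or G2/M phase had in the values of the 29 genes was not tested, nor was that of the lower Pdgfra level in shERK5 (-0.48, SE 0.14, adjusted p = 0.018), the epithelial markers or Cd68.

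**Figure D4:**
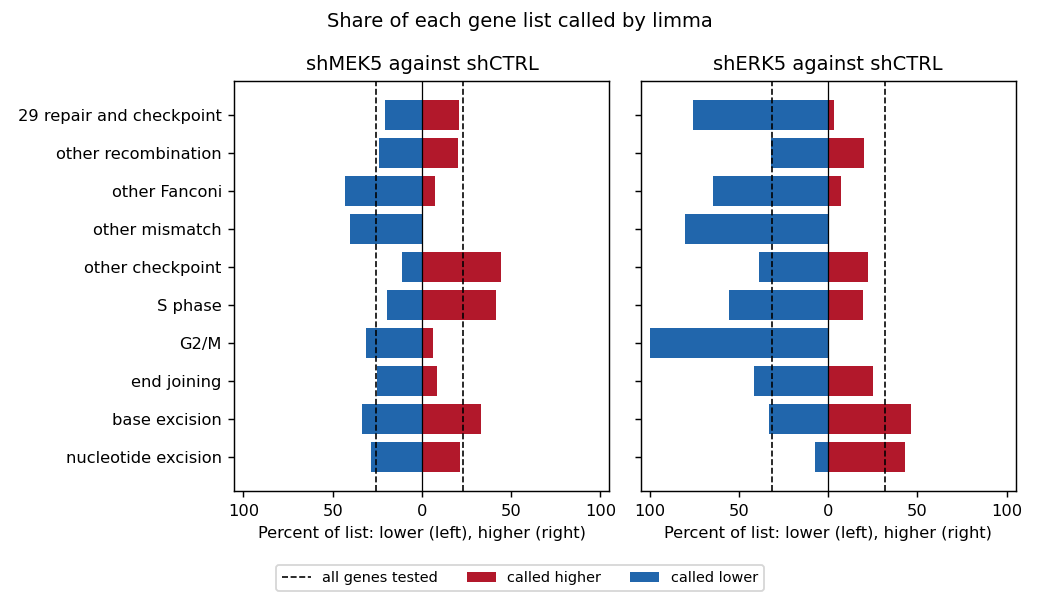
Percentage of each gene list called by limma at an adjusted p under 0.05 (horizontal axis; lower to the left, higher to the right) in shMEK5 and in shERK5 against shCTRL, with dashed lines at the shares of all 11623 tested genes. In shERK5 the lower bar reaches 75.9% for the 29 repair and checkpoint genes and 100% for G2/M genes.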

How the data were processed

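Total RNA was depleted of ribosomal RNA and made into stranded libraries, per the labels' protocols. The submitters' processing notes list STAR and mm10 (GRCm38). Which annotation and counting program were used, and whether strand was, is not given in the sources here. The authors deposited CPM, reads per 1000000 gene-assigned reads. Dividing by the value of 1 read gave whole numbers (within 0.01 read) for 100% of the listed values in each library, and these recovered reads were used in the count tests. On them edgeR called 2897 genes higher and 2730 lower in shMEK5, and 3719 and 3632 in shERK5. A count of 0 allows 3 reads, or up to 0.0725 CPM, for counting error only.

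Symbols and positions came from RefSeq GRCm38.p6 by Entrez number (24374 of 24454 genes), and exon lengths from the GENCODE basic set. Genes with at least 1 CPM in at least 2 libraries were tested with limma 3.58.1 (R 4.3.3), with trend and robust moderation, on log2(CPM + 1), a scale that understates changes of low genes. All 8 libraries were fitted with 1 mean for each group, without covariates, and with Benjamini-Hochberg adjustment over all 11623 genes and calls at an adjusted p under 0.05. Alternatives were a pseudocount of 0.25, no filter, RLE or TMM scaling, edgeR 4.0.16 and DESeq2 1.42.0 on the recovered reads, fits of the 2 groups compared, a replicate block and leaving out each library. The fit was also run on counts simulated from the means and dispersions of these data, with no outcome reported here. Replicates differed beyond counting noise (chi-square per degree of freedom 7.45 to 37.4).

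The members and lists were chosen with earlier results of these data known. All 29 members were named; those called with an absolute log2 fold change of at least 0.5 in any comparison were given library by library. From each list of other genes, the up to 4 called members with the smallest adjusted p in shERK5 were named. Some genes that this rule takes are not reported here.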

Additional observations from a re-analysis of the deposited data

How the results depend on the processing

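The number of members lower in shMEK5 was 6 with all libraries and between 2 and 8 with 1 library left out. The numbers of all genes called higher and lower in shERK5 against shMEK5 ran from 1583 to 2712 and from 1281 to 2178 when 1 library was left out, the lowest without shMEK5 replicate 1, beside 2561 and 2020 with all. The 22 members lower in shERK5 against shCTRL numbered 19 to 22 with 1 library left out and 20 to 22 under the other settings, and the 15 lower in shERK5 than in shMEK5 numbered 12 to 19 and 13 to 17. RLE and TMM scaling moved the median of all genes by -0.0244 at the most (log2).

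Over the 29 members and 3 comparisons, calls were kept in 363 and lost in 37 of the fits without 1 library, and kept in 391 and lost in 9 of the fits under another setting. Values that were not called changed sign in 15 and 6 of these fits, and became called with the same sign in 12 and 10. The fits without 1 library include those without a library of the group not compared. In these the fold change cannot move and only its p-value can. With 1 library left out, the values in shMEK5 ran from -0.0157 to 0.1149 for Brca1, -0.027 to 0.074 for Palb2, -0.0087 to 0.125 for Fanca, -0.057 to 0.0759 for Fancd2 and -0.052 to 0.0562 for Topbp1. Those in shERK5 ran from -0.0276 to 0.0743 for Fanca and, outside the 29, -0.01 to 0.0255 for the target Map2k5, and those between the knockdowns from -0.2055 to 0.0497 for Rmi2 and -0.0937 to 0.04 for Fanca. Under other settings, Palb2 (-0.0281) and Fancd2 (-0.0313) turned in shMEK5 with the replicate block, Topbp1 with RLE (0.0067) or TMM scaling (0.0037), edgeR (0.0124) and DESeq2 (0.0091), and Map2k5 in shERK5 with TMM scaling (-0.0029). The cause was not tested.

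Libraries with the same replicate number did not deviate together throughout (correlations of deviations -0.191 to 0.518 over the same-numbered pairs), so the numbers are not taken as pairs. With the replicate block, 6 members were higher and 9 lower in shMEK5, 1 higher and 22 lower in shERK5, and 17 lower in shERK5 than in shMEK5. The calls it added were Rad50 (-0.39, limma adjusted p = 0.0279), Nbn (-0.27, adjusted p = 0.0148) and Rbbp8 (-0.28, adjusted p = 0.0175) in shMEK5, and Brca2 (-0.42, adjusted p = 0.00371), Rad50 (-0.36, adjusted p = 0.0478) and Rbbp8 (-0.28, adjusted p = 0.0236) between the knockdowns, where Fancd2 (-0.20, adjusted p = 0.0752) was lost.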

Other observations

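Repair pathways outside recombination, crosslink and mismatch repair were also measured. Of 15 tested base excision genes, 7 (46.7%) were higher and 5 (33.3%) lower in shERK5, with a median of 0.06. Of all tested genes, 32.0% were higher and 31.3% lower there. Neil3, a glycosylase known from dividing cells, fell from 8.21 ± 1.82 to 3.04 ± 0.295 CPM (SD, n = 3 each; log2 fold change -1.17, SE 0.13, limma adjusted p = 2.65e-05), the nick repair scaffold Xrcc1 was at -0.47 (SE 0.05, adjusted p = 2.59e-05) and the abasic site nuclease Apex1 at -0.40 (SE 0.04, adjusted p = 1.9e-05), while the thymine glycosylase Tdg rose by 0.60 (SE 0.07, adjusted p = 4.05e-05). Of 14 nucleotide excision genes, 6 (42.9%) were higher and 1 (7.14%), Ercc1 (-0.37, SE 0.06, adjusted p = 0.000395), lower. The lower genes numbered 2 with TMM scaling and without shERK5 replicate 1. The damage recognition factor Rad23b (0.45, SE 0.04, adjusted p = 7.95e-06) and the nuclease subunit Ercc4 (0.36, SE 0.06, adjusted p = 0.000395) rose.

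Of 12 end joining genes, 3 (25.0%) were higher and 5 (41.7%) lower in shERK5, beside 32.0% and 31.3% of all tested genes. The 5 became 2 without shCTRL replicate 1 or shERK5 replicate 2 and 3 without shCTRL replicate 3 or shERK5 replicate 3. Xrcc6 and Xrcc5, the subunits of the Ku ring that binds broken ends, rose there by 0.37 (SE 0.05, adjusted p = 6.08e-05) and 0.15 (SE 0.04, adjusted p = 0.00639). In shMEK5 Xrcc6 rose by 0.30 (SE 0.05, adjusted p = 0.000784) and Xrcc5 was lower, at -0.15 (SE 0.04, adjusted p = 0.0147). Mad2l2, a shieldin subunit, was at -0.48 (SE 0.08, adjusted p = 0.000339) and the ligation factor Nhej1 at -0.46 (SE 0.11, adjusted p = 0.00364) in shERK5.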
